A study of Mus musculus with 8 samples.

Results

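Semaphorins, plexins and neuropilins form a family of guidance cues and receptors, and their acetylated chromatin was examined in breast tumors that grew with and without thymic stromal lymphopoietin (TSLP). Members were all autosomal protein-coding genes of the mouse annotation named Sema3 to Sema7, Plxna to Plxnd, Nrp1 or Nrp2. This gave 29 of 20807 autosomal protein-coding genes, made up of 20 semaphorins, 7 plexins and 2 neuropilins. The related genes Plxna3 and Plxnb3 lie on chromosome X and were left out. Although the rule used symbols, the family itself was chosen by measured values, since earlier results of these same 4 tumors had shown regions acetylated in both control tumors and neither test tumor near semaphorin genes. Counts of such regions and coverage differences between the groups are therefore given as a description, with no test.

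Semaphorins are secreted or membrane-bound proteins, first known for steering growing axons, and plexins are their receptors. The secreted class 3 semaphorins mostly need a neuropilin beside a type A plexin, while class 4 proteins are membrane-bound and act largely through type B plexins. Outside the nervous system the family acts on vessel growth, immune cells and epithelial shape, and in breast tumors several members are known to restrain or promote invasion.

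The 4 libraries came from tumors of 4 separate mice on a Balb/c background, profiled by chromatin immunoprecipitation sequencing for histone H3 with an acetyl group on lysine 27 (H3K27ac), which marks promoters and enhancers in use. The 2 control tumors were from PyMT;Rag1KO mice and the 2 test tumors from K14-TSLPtg;PyMT;Rag1KO mice. In both groups the polyoma middle T oncogene (PyMT) was driven by the MMTV promoter, Rag1 was knocked out so that hosts lacked T and B cells of their own, wild-type CD4+ T cells had been given at 4 weeks of age, and tumors were taken at terminal size. The test group alone carried TSLP under the keratin 14 promoter. Sample titles name the control material tumor and the test material cyst.

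The lists used here hold positions of peaks, so values are lengths and percentages, not signal heights, and the sequencing depth is unknown. Each list held 59762 to 69861 intervals that covered 64.3 to 73.1 Mb, and test 2 had the fewest intervals and the least covered length. Coverage of a gene is the percentage of bases lying in peaks, either within 10 kb on each side of its transcription start site (TSS) or along its gene body. A gene is written as control-higher where both control tumors exceeded both test tumors, and as test-higher in the reverse case. Where 4 values follow each other they stand for control 1, control 2, test 1 and test 2. Overlapping or touching peaks from the 4 lists were joined to form regions, and a region was control-only if both control tumors and neither test tumor had a peak in it, or test-only in the reverse case. With 2 tumors a group, an exact permutation test cannot give a p-value below 1 in 3.

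Control-only and test-only regions are the stretches with peaks in 1 group alone, so the middle 300 bases of several of the widest are printed. They come from the plus strand of the C57BL/6J reference (GRCm38, mm10), not from the Balb/c tumors. Capitals mark matches on either strand to a fixed set of motifs, each given here by its letters. AP-1 factors were searched for with the letters TGANTCA and STAT factors with TTCNNNGAA. The motif known as the E-box was searched for in its form CAGCTG, and a further E-box form was written CACCTG. TEAD factors, which read signals of the Hippo pathway, were represented by GGAATG, whereas RUNX factors were represented by the letters TGTGGT. For the ETS family the letters were CCGGAA, while forkhead proteins were searched for with TGTTTAC and zinc-finger GATA proteins with the letters AGATAAG. All 7 windows were intronic and overlapped no untranslated region. The Sema7a window was chr9:57951617-57951916 and the Sema6d window chr2:124599400-124599699. The Nrp2 windows were chr1:62719855-62720154 and chr1:62720502-62720801, and the Sema4d window was chr13:51737150-51737449.
Sema7a control-only: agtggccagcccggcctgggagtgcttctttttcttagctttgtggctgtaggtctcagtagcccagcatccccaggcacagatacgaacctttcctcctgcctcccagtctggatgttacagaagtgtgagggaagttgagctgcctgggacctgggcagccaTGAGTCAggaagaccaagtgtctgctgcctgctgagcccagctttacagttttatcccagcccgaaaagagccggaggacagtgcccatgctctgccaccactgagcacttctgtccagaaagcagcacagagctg
Sema6d control-only: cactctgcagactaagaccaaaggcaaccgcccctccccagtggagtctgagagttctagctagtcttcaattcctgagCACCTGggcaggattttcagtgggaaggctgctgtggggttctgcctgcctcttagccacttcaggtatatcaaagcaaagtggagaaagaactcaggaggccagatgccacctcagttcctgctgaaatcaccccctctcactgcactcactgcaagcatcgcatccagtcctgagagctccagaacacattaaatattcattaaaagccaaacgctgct
Nrp2 control-only, first: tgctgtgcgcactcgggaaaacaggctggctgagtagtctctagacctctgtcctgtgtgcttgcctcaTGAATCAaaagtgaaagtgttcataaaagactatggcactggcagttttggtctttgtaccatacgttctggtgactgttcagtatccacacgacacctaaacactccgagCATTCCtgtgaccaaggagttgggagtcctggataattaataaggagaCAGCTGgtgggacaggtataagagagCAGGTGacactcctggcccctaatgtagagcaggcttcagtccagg
Sema4d control-only: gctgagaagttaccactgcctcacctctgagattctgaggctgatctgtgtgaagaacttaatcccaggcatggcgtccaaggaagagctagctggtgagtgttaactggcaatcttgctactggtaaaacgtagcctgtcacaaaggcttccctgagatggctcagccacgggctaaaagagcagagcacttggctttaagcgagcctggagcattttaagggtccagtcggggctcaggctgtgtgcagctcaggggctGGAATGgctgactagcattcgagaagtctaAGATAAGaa
Nrp2 control-only, second: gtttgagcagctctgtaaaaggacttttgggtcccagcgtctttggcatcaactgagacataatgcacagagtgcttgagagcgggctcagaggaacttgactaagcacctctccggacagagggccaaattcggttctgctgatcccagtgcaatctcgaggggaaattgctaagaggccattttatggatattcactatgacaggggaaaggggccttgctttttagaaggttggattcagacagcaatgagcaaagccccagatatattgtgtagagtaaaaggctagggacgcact

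The widest test-only regions lay in Sema5a and Sema4d. The Sema5a window was chr15:32537290-32537589, and the Sema4d window was chr13:51771647-51771946.
Sema5a test-only: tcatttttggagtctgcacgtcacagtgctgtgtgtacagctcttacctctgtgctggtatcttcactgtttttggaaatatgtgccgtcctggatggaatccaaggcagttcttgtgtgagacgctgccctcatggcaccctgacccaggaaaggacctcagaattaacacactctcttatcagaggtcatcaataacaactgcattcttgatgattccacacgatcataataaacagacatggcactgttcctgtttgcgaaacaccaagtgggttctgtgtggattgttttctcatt
Sema4d test-only: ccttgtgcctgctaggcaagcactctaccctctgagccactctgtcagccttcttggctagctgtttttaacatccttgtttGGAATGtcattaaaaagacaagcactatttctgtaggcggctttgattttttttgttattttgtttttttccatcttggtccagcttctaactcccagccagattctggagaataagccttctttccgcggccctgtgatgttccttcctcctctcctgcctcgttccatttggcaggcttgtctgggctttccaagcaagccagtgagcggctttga

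The printed control-only windows held TGANTCA, where N is any base, as TGAGTCA in Sema7a and as TGAATCA in the first of the Nrp2 windows. They held the E-box form CACCTG in Sema6d, and a TEAD match and a GATA match in Sema4d. Of the printed test-only windows, that of Sema4d held a TEAD match and that of Sema5a held none. The first Nrp2 window also held both E-box forms and a TEAD match, whereas the second held none of the motifs. Over all 14 control-only regions in the family, TGANTCA was in 2 and GGAATG in 4, against 8.48% and 18% of the 3055 autosomal control-only regions. CACCTG was in 4 of 14 against 18.3%, TGTGGT in 2 against 21%, and CCGGAA in 0 against 4.16%. CAGCTG was in 2 against 17.5%, and the STAT, forkhead and GATA motifs were in 1 region each against 9.43%, 3.86% and 3.18%. Median GC content was 51.3% in the 14 regions and 47.3% in all autosomal control-only regions. With so few regions these counts are a description of letters and say nothing of bound factors.

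Of the 29 members, 20 had peaks within 10 kb of the TSS in at least 1 tumor, and 9 had none there in any tumor. Coverage of the 20 was lower on average in the test tumors for 13 and higher for 7, where 42.8% of all covered genes were lower and 57.2% higher. The median difference, test minus control, was -1.69 percentage points, beside 0.272 over the 14382 genes with coverage. It was -0.709 without control 2, -2.62 without test 1 and -0.674 without test 2, beside 0.437, -0.345 and 0.725 over all genes, and it was -0.265 with a 2.5 kb window, beside 0.955. The difference exceeded the pooled SD of the tumors for 10 members, of which 7 were lower and 3 higher in test tumors, where the shares over all covered genes were 15.3% and 25.7%. Control-higher coverage was seen for Sema3f, Sema7a, Plxna2 and Nrp2, which is 4 of 20 where 11.7% of all covered genes were control-higher. Sema4d and Plxnb1 were test-higher, which is 2 of 20 where the background was 20.9%. With coverage scaled to the mean of each tumor, 6 of 20 members were control-higher and 1 was test-higher, where all genes had 14% and 19.1%. Sema4d was the member that lost its test-higher order there. In bulk tumors, fewer cells carrying the mark and less of the mark per cell cannot be told apart.

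**Figure D1:**
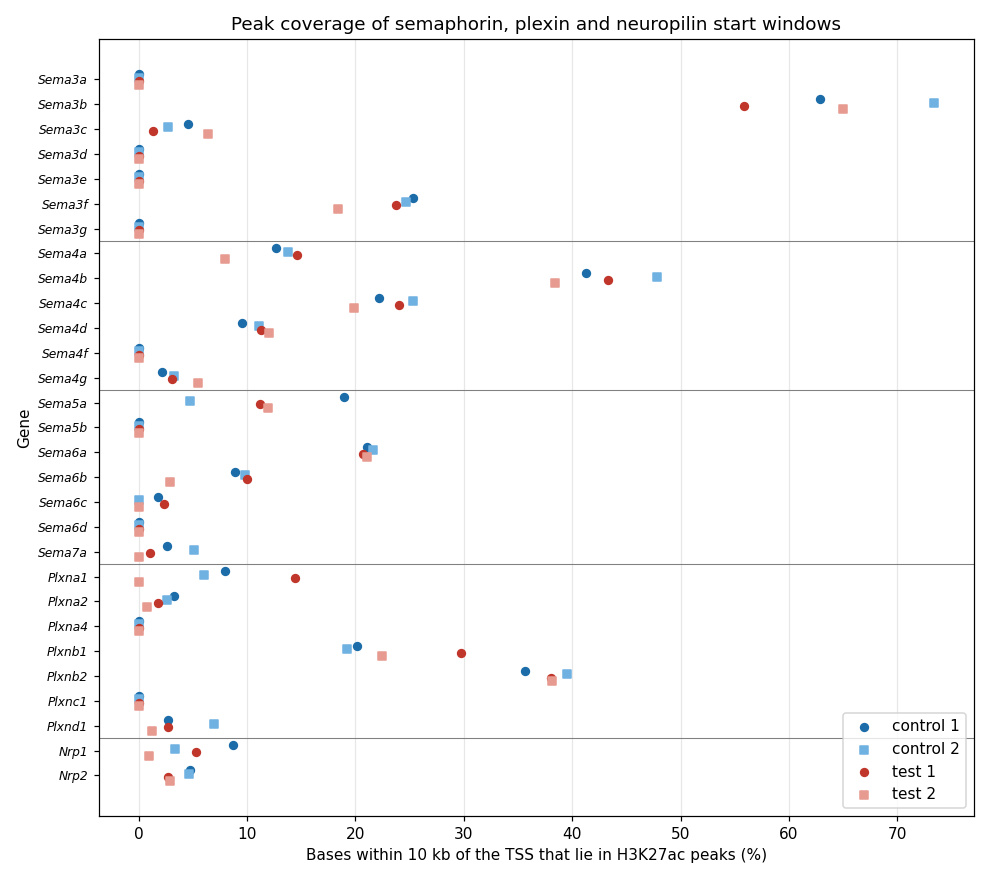
Percentage of bases within 10 kb of the TSS that lay in H3K27ac peaks (horizontal axis) for each of the 29 members (vertical axis, grouped as class 3, class 4, class 5 to 7, plexins and neuropilins). Each symbol is 1 tumor, and Sema3b, Sema4b and Plxnb2 stand to the right in all 4 tumors while 9 members sit at 0.

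Along gene bodies, 27 members had coverage. Control-higher gene body coverage was found for Sema3b, Sema3e, Sema3f, Sema6d, Sema7a and Plxna2, 6 of 27 beside a background of 13.5% of 14136 genes. Sema5b, Plxnb1 and Plxnb2 were test-higher, 3 of 27 beside 18%. The median body difference was -0.164 points in the family and 0.0586 over all genes. Members with a region in their locus are long genes, with a median length of 108 kb against 23.0 kb for all genes with a region. A given peak thus makes up less of the body.

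Among the class 3 semaphorins, which are secreted, Sema3b and Sema3f had the most acetylated starts. Both are known as tumor suppressors in lung and other cancers. Sema3b (chr9:107597674-107609229) had window coverage of 62.8% and 73.3% in the controls, and of 55.8% and 64.9% in test 1 and test 2. The groups overlapped, and the difference of -7.69 points was close to the pooled SD of 6.96. It was -13.0 points without control 1, -2.42 without control 2, -3.14 without test 1 and -12.2 without test 2. A region of 13140 bp that reached from upstream of the promoter over most of the gene held most of these peaks, which filled 11905 and 13122 bp of it in the control tumors and 10921 and 12177 bp in the test tumors. Its gene body values were 63.2%, 73.4%, 55.8% and 63.1% in the same order of tumors. Control 1 lay barely above test 2 there, so the control-higher order of this gene rests on a very small gap.

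Sema3f (chr9:107681500-107710475) had window coverage of 25.3% and 24.7% in the controls, against 23.7% in test 1 and 18.4% in test 2, a mean of 25% ± 0.453 (SD, n = 2) against 21.1% ± 3.77 (SD, n = 2). Test 2 was the low tumor, and test 1 lay just under the controls. Body coverage was 10.3%, 9.90%, 7.70% and 2.47%. The promoter region of 1331 bp and a region of 2634 bp that lay 4.19 kb upstream had peaks in all 4 tumors. The lower coverage was intronic, where 3 regions centred 2.06, 7.61 and 8.77 kb from the TSS had peaks in every tumor except test 2. With peaks at least 1 kb wide, Sema3f turned to test-higher, by 2.15 points. The difference of -3.90 points was -6.56 without test 1 and -1.23 without test 2.

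Sema3c, a cue for vessels and epithelium, varied more within the test group than between groups, at 4.55% and 2.75% in control tumors and 1.34% and 6.38% in test tumors. Its 3 regions with peaks in all 4 tumors were the promoter and introns 68.2 and 115 kb into the gene, and an intronic region of 1897 bp was present in test 2 alone. Sema3e, the ligand of Plxnd1, had no peak near its start in any tumor. Its body coverage was 0.0821% and 0.161% in the controls but 0 in both test tumors, from a control-only intronic region of 190 bp that lay 62.8 kb into the gene and a second small region in control 2 alone. Sema3a and Sema3d had no peaks at their starts, and Sema3g had none anywhere in its locus. Sema3a had peaks in test 2 alone, and 6 of the 7 regions of Sema3d had a peak in test 2, where control 2 and test 1 had none.

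Class 4 semaphorins, membrane-bound ligands used by immune and epithelial cells, were acetylated at most starts, and their groups mostly overlapped. Sema4b covered 41.3% and 47.8% of its window in control tumors and 43.3% and 38.4% in test tumors. The interval over its TSS had nearly the same width in every tumor, from 5565 to 5851 bp. Sema4c, a partner of Plxnb2, had 22.2%, 25.3%, 24.0% and 19.9%, and its TSS interval measured 4438, 4478, 4415 and 3733 bp. In both genes test 2 had the lowest window coverage, and the groups overlapped.

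Sema4d (chr13:51685529-51793747), also known as CD100, is a ligand of Plxnb1 and, on immune cells, of CD72. Its window coverage was 9.55% and 11.1% in the controls, against 11.3% and 12% with TSLP, so that control 2 and test 1 nearly touched. The mean was 10.3% ± 1.10 in control and 11.7% ± 0.498 in test tumors (SD, n = 2 each). The groups overlapped with scaled coverage, with a 50 kb window and, at a difference of 0.287 points, with peaks at least 1 kb wide. The difference of 1.32 points was 0.542 without control 1 and 2.10 without control 2. Its 21 regions held changes of both kinds. A control-only region of 392 bp lay 56.4 kb from the gene start and 2.54 kb upstream of an annotated inner transcript start, with peaks of 241 and 392 bp in the control tumors. The test-only regions of 558 and 360 bp lay 22.0 and 29.4 kb into the gene, with peaks of 198 and 543 bp and of 277 and 360 bp in test 1 and test 2. Whole-body coverage was 11.6%, 13.6%, 13.1% and 11.8%, and the groups overlapped.

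Sema4g had a control-only region of 263 bp at its promoter, with peaks of 161 and 190 bp in the control tumors, while a neighbouring promoter region had peaks in control 2 and test 1. Its window coverage was 2.16% and 3.22% in control tumors and 3.05% and 5.51% in test tumors, the last owing to a wider upstream peak of 939 bp in test 2 where the other tumors had 271 to 292 bp. Sema4a, a ligand studied on immune cells, had 12.7%, 13.8%, 14.6% and 7.96%, low in test 2. Its annotated gene start had a peak in control 2 alone, but transcript starts between 4.75 and 11.1 kb further in had peaks in all 4 tumors. Sema4f had no peak in its locus.

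The class 5 to 7 group of semaphorins, all tied to the membrane, held the member with the largest body difference, Sema7a. Sema7a (chr9:57940112-57962865) is attached to the membrane by a lipid anchor and acts through integrin beta 1 and Plxnc1. Its body coverage was 17.1% and 12.6% in the controls but 4.29% in test 1 and 0 in test 2, a difference of -12.7 points against a pooled SD of 3.09. All 5 of its regions lacked a peak in test 2. Peaks filled 1791 and 1573 bp of the widest region in the control tumors and 790 bp in test 1, and the next widest held 1545, 725 and 186 bp. Between them a control-only region of 703 bp, 11.7 kb from the TSS, had peaks of 209 and 569 bp. The promoter itself had no peak in any tumor. Window coverage, which caught only the edge of this cluster, was 2.62% and 5.13% in control tumors and 1.05% and 0 in test tumors. That difference of -3.35 points was -2.10 without control 2.

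Sema5a (chr15:32244810-32696341), a transmembrane protein with thrombospondin repeats, varied most between the control tumors. Its window coverage was 19.0% for control 1 and 4.74% for control 2, against 11.2% and 12% for the test tumors, and the control SD of 10.1 points was far above the difference of -0.297. A control-only region of 987 bp lay in an intron 61.9 kb from the TSS, where the peak was 987 bp in control 1 and 170 bp in control 2. A test-only region of 1351 bp lay 293 kb from the TSS, with peaks of 294 bp in test 1 and 1351 bp in test 2. In each of these regions the peak in 1 tumor of the group was much wider than in the other. Sema5b had peaks in introns alone, and its body coverage was 0.790%, 0.387%, 0.964% and 1.06%, test-higher by 0.422 points.

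Sema6a, a plexin A ligand, had a steady start, with window coverage of 21.1%, 21.6%, 20.7% and 21.1% and a TSS interval of 3985 to 4059 bp in every tumor. Control-only regions of 1129 and 242 bp lay 53.6 and 85.0 kb into this gene, among 26 regions in all. The 1129 bp region had a peak of 214 bp in control 1 and of 1129 bp in control 2. Sema6d (chr2:124089969-124667770), a ligand of Plxna1, had no peak at its annotated gene start, but inner transcript starts about 520 kb downstream had peaks in all 4 tumors. A control-only intronic region of 408 bp lay 10.6 kb upstream of those inner starts, with peaks of 213 and 400 bp. Body coverage of Sema6d was 0.916%, 1.20%, 0.778% and 0.854%, control-higher by a narrow margin. Sema6b had window coverage of 8.86%, 9.82%, 10.0% and 2.89%, from a region at an inner start 6.50 kb from the gene start that shrank to 579 bp in test 2. Sema6c had small promoter peaks in control 1 and test 1 alone.

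**Figure D2:**
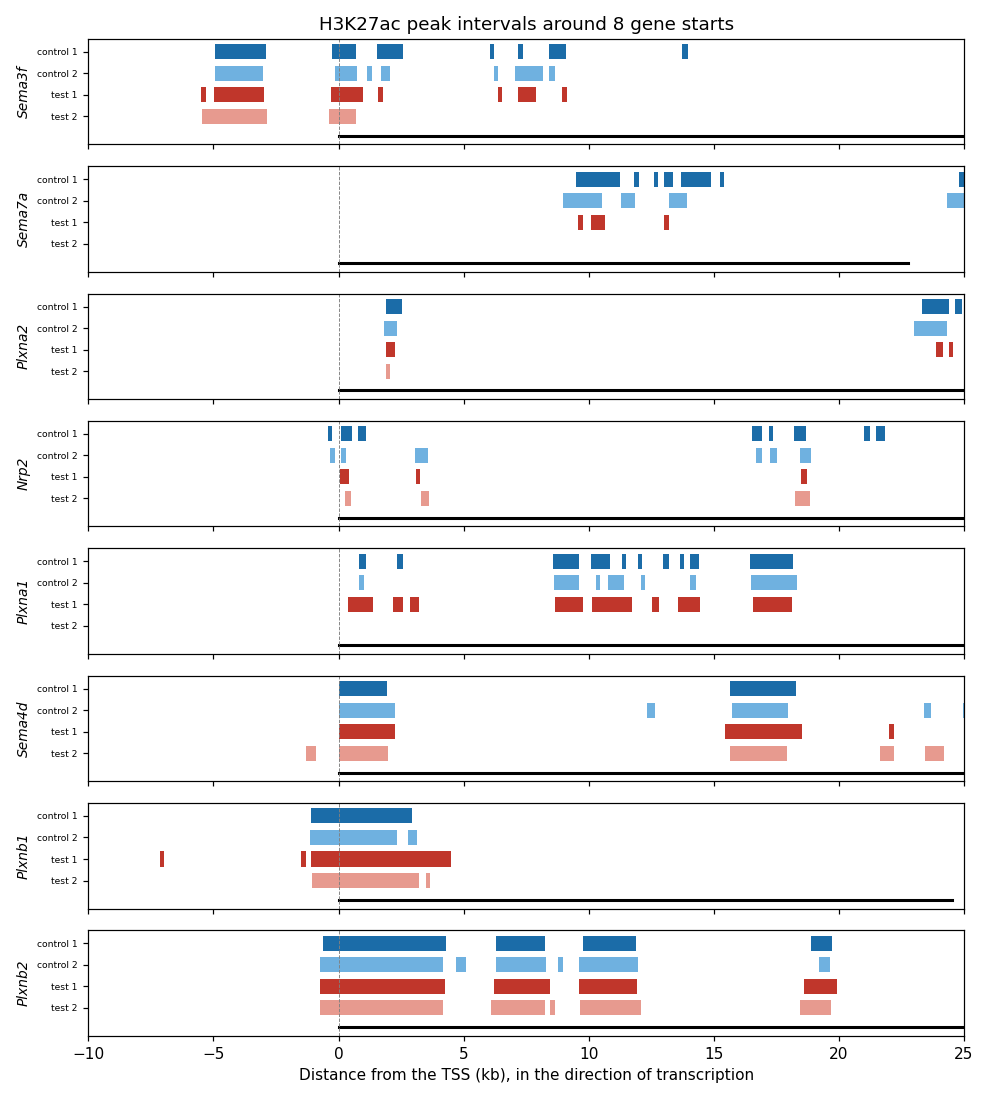
Positions of the peak intervals of each tumor around 8 gene starts, as distance from the TSS in kb in the direction of transcription, with the gene body as a black line. Sema7a and Plxna1 have no interval in test 2 across the stretch shown, while the intervals over the Plxnb1 and Plxnb2 starts are present in every tumor.

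Among the receptors, the type B plexins had the broadest acetylated starts. Plxnb1 (chr9:109095389-109119917) is the receptor of Sema4d and signals to RhoA. Its window coverage was 20.1% and 19.2% in the controls, against 29.8% and 22.4% with TSLP, a mean of 19.7% ± 0.636 against 26.1% ± 5.19 (SD, n = 2 each). The difference of 6.40 points exceeded the pooled SD of 3.69, and it was 2.73 points without test 1 and 10.1 points without test 2. With a 2.5 kb window the groups overlapped. The interval over its TSS was 4029 and 3480 bp wide in control tumors and 5599 and 4307 bp wide in test tumors, so the peak was broader in the test group rather than absent from the control group. Body coverage was 12%, 11.1%, 18.3% and 13.9%. Plxnb2, the receptor of Sema4c, had 35.6%, 39.5%, 38.0% and 38.2% at its start, and its TSS interval measured 4911 to 4965 bp in all 4 tumors. Its body coverage was 36.6% and 37.8% in control tumors and 40.1% and 40.5% in test tumors, test-higher by 3.09 points against a pooled SD of 0.660.

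Plxna2, a receptor for class 3 and class 6 semaphorins, had window coverage of 3.24% and 2.57% in control tumors and 1.79% and 0.805% in test tumors. This came from a single region of 707 bp, 2.18 kb from the gene start, with peaks of 649, 515, 358 and 161 bp. A second region of 1577 bp, centred 23.8 kb into the gene, held 1062, 1323, 478 and 0 bp of peaks. Both regions therefore ran in the same order of groups. Plxna1, a partner of neuropilins and the receptor of Sema6d, split the test group instead. Its window coverage was 7.94% and 5.99% in control tumors, 14.4% in test 1 and 0 in test 2. All 10 of its regions lacked a peak in test 2, while 8 of them had peaks in test 1. A control-only region of 282 bp lay 12.1 kb into the gene, with peaks of 155 and 162 bp in the control tumors.

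Plxnd1, the receptor of Sema3e on endothelium, had window coverage of 2.68%, 6.95%, 2.71% and 1.25%. A promoter region of 360 bp had peaks in all 4 tumors, and a control-only region of 285 bp beside it, 0.847 kb upstream of the TSS, had peaks of 215 and 256 bp. Plxna4, known from neurons, had an intronic region of 1715 bp with peaks in every tumor and none at its start. Plxnc1, the receptor of Sema7a, had peaks in control 1 and test 1 alone, and its body coverage was at most 0.253%.

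Neuropilins bind class 3 semaphorins and vascular endothelial growth factor. Nrp2 (chr1:62703285-62818695) had window coverage of 4.73% and 4.64% in control tumors and 2.70% and 2.90% in test tumors. The difference of -1.89 points was large beside the pooled SD of 0.109, the smallest spread among the members whose window groups did not overlap. With a 50 kb window the Nrp2 groups overlapped and the difference was -0.222 points. It held 3 of the 14 control-only regions, more than any other member. The first was a promoter region of 271 bp with peaks of 173 and 178 bp. The other Nrp2 regions of this kind lay 16.7 and 17.4 kb into the gene and were 399 and 345 bp wide, with peaks of 396 and 218 bp and of 182 and 289 bp. Further into Nrp2 the order turned, since a region 40.1 kb from the TSS held 229 and 282 bp of peaks in control tumors against 536 and 2010 bp in test tumors. Body coverage was 2.41%, 2.81%, 1.98% and 4.62%, and the groups overlapped. Nrp1 had window coverage of 8.72%, 3.36%, 5.27% and 0.98%, again lowest in test 2, and a control-only region of 220 bp lay 1.77 kb from its TSS with peaks of 216 and 181 bp.

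In all, the loci of the family, each made of the gene body and the window around its start, held 208 regions. Control-only regions made up 14 of them, 6.73%, where 3.27% of the 63162 regions in loci of protein-coding genes were control-only. Test-only regions made up 3, or 1.44%, where the background was 1.47%. At least 1 control-only region was found in 11 of the 27 members that had any region, 40.7% against 11.2% of all genes with a region. A test-only region was found in 2 members, 7.41% against 5.89%. Loci of members held a median of 6 regions and those of all genes with a region 3, so a typical member had more regions that could be of either kind. The excess of control-only regions is the pattern for which the family was picked, and it does not stand as a new result.

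The control-only regions were small. Their median width was 315 bp, against 1715 bp for the 57 member regions with peaks in all 4 tumors, and the same contrast held over all genes, at 407.5 and 1733.5 bp. Of the 14, 11 were intronic and 3 lay at promoters, and all 3 test-only regions were intronic. Regions with peaks in all 4 tumors were 27.4% of the family's regions and 40.8% of those of all genes. Regions seen in control 1 alone made up 14.9% against 9.12%, and regions seen in every tumor except test 2 made up 8.65% against 6.54%. Among others that were also more frequent in the family, control 2 alone had 12.5% against 9.53% and test 2 alone 8.65% against 7.34%. Control 2 with test 1 had 3.85% against 2.31%. Some combinations were rarer in the family, such as test 1 alone with 5.77% against 8.49% and control 1 with test 1, 2.88% against 3.54%. A larger share of the family's regions thus lacked a peak in at least 1 tumor than in gene loci in general.

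**Figure D3:**
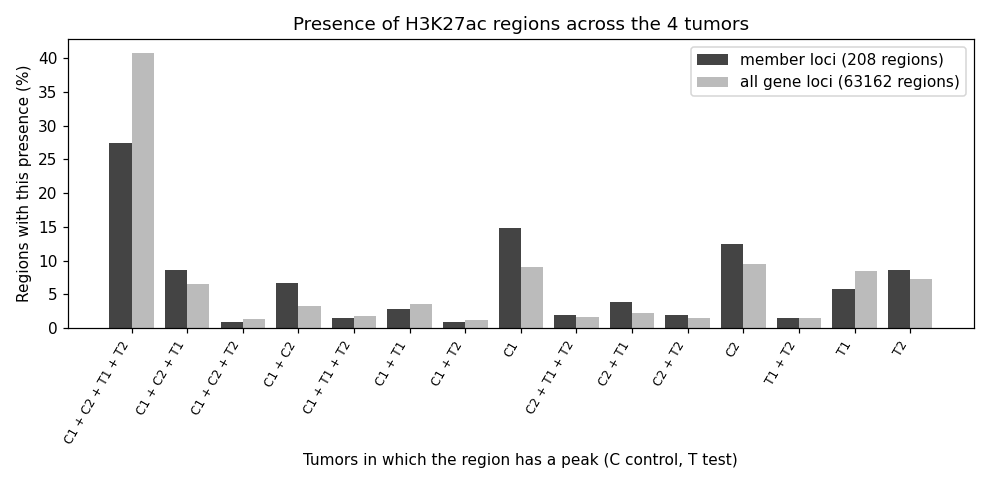
Percentage of regions (vertical axis) with each combination of tumors that had a peak (horizontal axis), for the 208 regions in member loci and the 63162 regions in loci of all protein-coding genes. Regions in all 4 tumors are less frequent in the family, 27.4% against 40.8%, and regions in both control tumors alone are 6.73% against 3.27%.

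The count of control-only regions depended on how peaks were treated. With the same number of peaks kept in each tumor, there were 9 control-only regions in 6 members, 5.17% of the family's regions against 2.54% in general. With peaks within 1 kb joined there were 4, and the shares came close to each other at 3.10% and 2.63%. With peaks at least 1 kb wide there were 3, or 4.69% against 2.25%. Leaving out a tumor loosens the definition, and the counts then ran from 17 without test 2, 8.50% against 5.00%, to 47 without control 2, 24.9% against 14.2%.

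**Figure D4:**
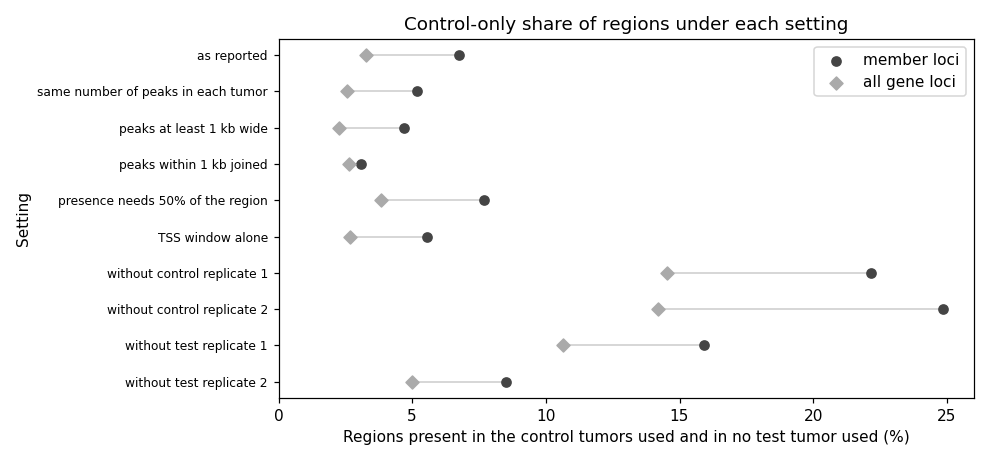
Percentage of regions that were control-only (horizontal axis) in member loci and in loci of all genes under each way of treating the peaks (vertical axis). The value in member loci lies above that of all genes in each setting, and the gap is smallest with peaks within 1 kb joined, 3.10% against 2.63%.

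A promoter peak was either shared by all tumors or absent from all of them for most members. A peak within 1 kb of the TSS was present for 16, 16, 16 and 12 members in control 1, control 2, test 1 and test 2. For 12 members it was present in all 4 tumors, for 12 in none, and for 5 in some. Both control tumors had it for 51.7% of members against 53.4% of all genes, and both test tumors for 41.4% against 52.1%. Without test 2 the share in the remaining test tumor was 55.2% against 55.6%. No member had a promoter peak in both control tumors and neither test tumor, a pattern seen for 0.935% of the 12191 genes with a promoter peak, and none had the reverse, seen for 0.541%. Sema4g, Plxna1 and Nrp1 lacked the peak in test 2 alone. Of the 12 members without a promoter peak, Sema6b, Sema6d and Plxna2 had peaks in all 4 tumors at another annotated transcript start.

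The tumors did not pair by group over these loci, nor over all autosomes. The joined loci spanned 4.17 Mb, of which peaks covered 127 and 122 kb in control tumors and 118 and 115 kb in test tumors. The Jaccard index, the shared covered length over the total covered length, was 0.583 between the control tumors and 0.537 between the test tumors. It was highest between control 2 and test 1, at 0.622, and lowest between control 1 and test 2, at 0.504. Across all autosomes the same pairs had 0.662, 0.606, 0.662 and 0.590, and the most alike pair there was control 1 and test 1, at 0.692 against 0.599 over the family's loci. The family's loci were less alike than the genome at large in each of these pairs.

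Beyond the family, 40 partner genes of the pathway were followed. Window coverage was found for 35 of them, and 6 were control-higher and 10 test-higher, with a median difference of -0.395 points. Over all covered genes 11.7% were control-higher and 20.9% test-higher, with a median of 0.272 points, and the counts of both pathway lists stand beside these shares. Cytoplasmic effectors, which carry plexin signals to the cytoskeleton, had a median of 1.23 points, with 3 control-higher and 8 test-higher of 23. Partner receptors and shared ligands had a median of -0.856 points, with 3 control-higher and 2 test-higher of 12. Mical1, an actin-oxidizing enzyme that binds plexin A, had 6.55% and 8.35% in control tumors and 2.10% and 0.825% in test tumors. Dpysl2, a mediator of Sema3a signals to microtubules, had 13.3% and 14.9% against 6.81% and 10.2%, and the kinase Fyn had 2.92% and 6.96% against 1.04% and 1.23%. In each of these 3 effectors both control tumors lay above both test tumors. The kinase Pak1 had 4.48% and 5.99% in control tumors and 6.61% and 11.3% in test tumors, and Farp1, which links plexins to Rac, had 11.2% and 12.9% against 15.6% and 14.6%. Tyrobp, a myeloid adaptor that can join a plexin complex, had 31.3% and 24.9% against 18% and 16.7%. Tyrobp also counts among the myeloid markers below, and Kdr of the partner list counts among the endothelial markers.

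Markers of several non-epithelial cell types that a breast tumor can hold differed between the groups as well. The mean was lower in test tumors for 42.8% of all covered genes, and 11.7% were control-higher. Mean window coverage of 14 endothelial markers was 4.09% and 3.73% in the controls, against 1.28% and 0.466% with TSLP, and all 10 with coverage were lower in test tumors, 6 of them control-higher. Tie1, Erg, Cldn5 and Vwf had no coverage in any tumor. The 15 fibroblast markers had means of 5.18% and 4.18% against 2.77% and 0.606%, and 11 of 11 covered genes were lower, 4 of them control-higher, with Lum, Fap, Thy1 and Twist2 at 0. The 15 myeloid markers had 17.0% and 15.3% against 14.3% and 8.78%, with 13 of 14 lower, 8 of them control-higher, and Adgre1 at 0. The 12 T cell markers had 6.45% and 6.68% against 5.16% and 3.66%, with 9 of 10 lower and Zap70 among those at 0. Most of the T cell mean came from Gata3, which luminal mammary cells use too, and Bcl11b. Gata3 had 50% and 50.4% against 50.7% and 40.3%, and Bcl11b had 22.1% and 13.5% against 8.20% and 0. Of the 10, 3 were control-higher, and Cd3e was test-higher with 0 and 0.790% against 1.27% and 1.01%. In the means of each of these 4 lists both control tumors lay above both test tumors, and test 2 was the lowest.

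The 14 luminal epithelial markers had means of 35.8% and 33.3% in control tumors and 34.2% and 35.3% in test tumors, with Foxa1 at 0. Of the 13 with coverage, 9 were higher in test tumors, where 57.2% of all covered genes were higher. Luminal marker starts thus had coverage in every tumor, and the means of the groups overlapped. The 11 myoepithelial markers had 5.20%, 2.46%, 5.87% and 2.44%, with 6 of 10 lower in test tumors and Trp63 at 0 in its window. Further into its locus Trp63 held 5 control-only regions and no test-only region. The 8 neuronal markers were at 1.72%, 2.68%, 1.59% and 1.14%, and 5 of them (Snap25, Syt1, Rbfox3, Nefl and Stmn2) had no coverage in any tumor. The part of the endothelial, fibroblast, myeloid and T cell markers in the values of Nrp2, Plxna2, Sema7a and the control-only regions was not tested.

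**Figure D5:**
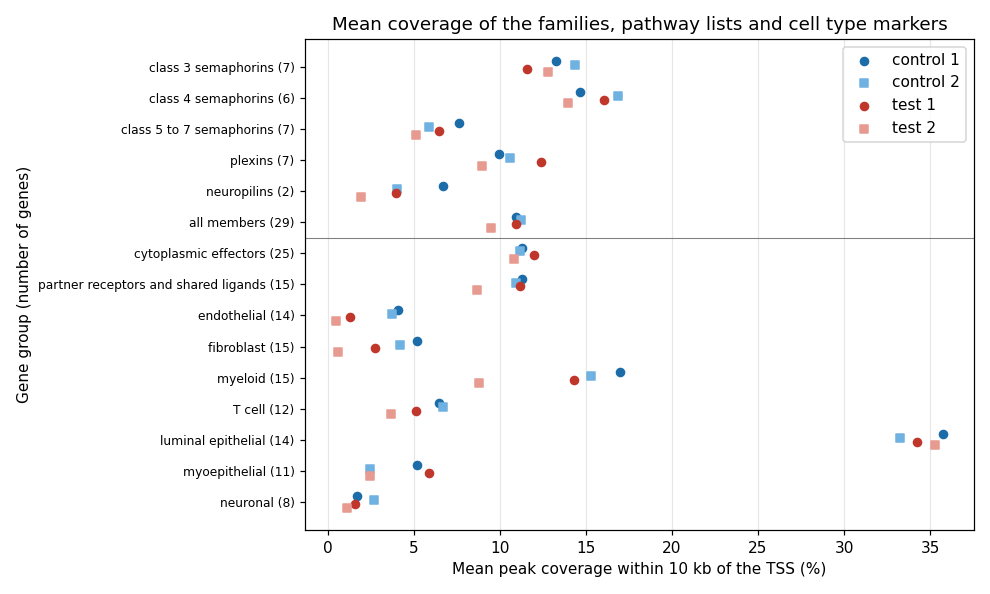
Mean percentage of bases in peaks within 10 kb of the TSS (horizontal axis) for each class of the family, the pathway lists and the cell type marker lists (vertical axis, number of genes in parentheses), with 1 symbol per tumor. The endothelial, fibroblast, myeloid and T cell lists lie lower in both test tumors than in both control tumors, and the luminal list lies between 33.3% and 35.8% in all 4.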

How the data were processed

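Peak lists from H3K27ac ChIP-seq of 2 control and 2 test tumors were used, grouped by genotype per the labels (numbers name tumors and pair none). Input libraries served the authors' peak identification and were not used here. The authors aligned reads to mm10 with BWA and identified peaks with MACS2 in each tumor against its input at a q-value of 0.01. The deposited lists hold interval positions in base pairs, cleaned and merged by the authors with gaps of at least 201 bp, with no height or score. How reads were filtered is not given in the sources used here. Depth is unknown, and a deeper library can give more and wider peaks.

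Gene positions were from GENCODE M21 (GRCm38), and the TSS was the 5′ end of the gene. Promoters were 1 kb either side. A region was present with 1 bp of overlap. The members, lists, comparisons and alternatives were chosen with earlier results of these data known. Per-tumor values were given for members whose groups did not overlap or that held a control-only or test-only region, and for up to 6 pathway genes with the largest non-overlapping difference. Others of the family were named to account for all members. No test across genes was run. Alternatives changed the number, width or joining of peaks, the windows, the overlap, the scaling and the tumors used. Python 3.11.15, NumPy 2.4.6 and pysam 0.24.0 were used, and the coverage and region code was tested on simulated data. All 35 promoter entries of the members in the RefSeq table matched the GRCm38 genome file. A marker gene and some of the widest regions' sequences are not reported here.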

Additional observations from a re-analysis of the deposited data

How the results depend on the processing

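Directions of the family medians held in most settings, while counts of members often moved. Control-higher members in the TSS window, 4 as reported, were 7 with a 50 kb window, which is 7 of 27 covered members instead of 4 of 20, beside 12.8% of all genes. Test-higher members, 2 as reported, were 1 with a 2.5 kb window, 1 with scaled coverage and 4 with a 50 kb window, beside 22.2%, 19.1% and 17.6% of all genes. Sema4d lost its order with scaled coverage, with a 50 kb window and with peaks at least 1 kb wide, Plxnb1 with a 2.5 kb window and Nrp2 with a 50 kb window. The median window difference of -1.69 points was -0.669 with peaks at least 1 kb wide, -0.265 with a 2.5 kb window and -0.222 with a 50 kb window, and the median body difference of -0.164 turned to 0.150 with peaks at least 1 kb wide, beside 0.148 over all genes. The body median was -0.455 without test 1 and -0.0396 without test 2, beside -0.183 and 0.269 over all genes. With peaks at least 1 kb wide, Sema3f also turned, to 2.15 points, control-higher bodies fell from 6 to 3 (of 27 and 20 covered members, beside 13.5% and 10.8% of all genes) and promoters acetylated in every control tumor from 15 to 7 of 29 (beside 53.4% and 34.6% of all genes), and with peaks within 1 kb joined test-higher bodies fell from 3 to 1, beside 16.6% of all genes. Control-only regions, 14 in 11 members as reported, were 9 in 6 members with equal peak numbers, 3 in 3 with peaks at least 1 kb wide, 4 in 4 with peaks within 1 kb joined and 4 in 4 in the TSS window alone, where test-only regions were 0 in 0 members. The shares of all genes with a control-only region were 8.30%, 4.24%, 7.28% and 5.74% in that order, and in the window 5.56% of the family's regions were control-only against 2.66% of all. Leaving out 1 tumor at a time gave 6 to 11 control-higher and 3 to 6 test-higher members in the window, while the shares over all genes ran from 18.2% to 39.5% and from 32.4% to 50.1%. It gave a median window difference of -2.62 without test 1, where that of all genes was -0.345, to -0.674 without test 2, where it was 0.725, and 9 to 12 control-higher and 5 to 9 test-higher bodies, beside 21.3% to 39.7% and 30.1% to 44.1% of all genes. It gave 17 to 47 control-only regions in 12 to 18 members and 5 to 23 test-only regions in 2 to 14 members. Over all genes, 5.00% to 14.5% of regions were then control-only and 3.40% to 11.1% test-only, and 15.6% to 33.3% and 12.2% to 30.0% of genes held one. Control-only regions numbered 41 without control 1, 47 without control 2, 32 without test 1 and 17 without test 2, and test-only regions 8, 5, 23 and 18 in the same order, since a definition over 3 tumors is looser for every gene. Of 192 values of single members under the alternatives, 27 changed sign, of which 26 belonged to members whose groups overlapped as reported and 1 was that of Sema3f. Plxna1, for example, went from 0.252 to -6.97 without test 1. Depth is unknown, and test 2, where all 5 regions of Sema7a and all 10 of Plxna1 had no peak, had the fewest intervals; the part of depth was not tested. No paired analysis was possible because tumor numbers only name tumors and no test was run.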
